A study of Mus musculus with 3 samples.

Results

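The cytosolic ribosomal protein genes encode the protein shell of the ribosome that translates nuclear mRNAs. They were taken by gene symbol, as Rpl or Rps symbols of numbered proteins, the acidic stalk proteins Rplp0, Rplp1 and Rplp2, and Rpsa, with a mean of at least 1 FPKM over the 3 libraries. FPKM is the count of a gene divided by its exonic length in kilobases and by the counted reads of its library, in units of 1000000 reads. CPM, used below for ratios, is the same without the length. The rule found 77 genes, 46 of the large subunit and 31 of the small subunit, among 46078 genes in all and 10849 genes with a mean of at least 1 FPKM. Every gene matching the symbol rule passed the limit of 1 FPKM, so no member was lost to it.

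The cells were RAW 264.7, an established mouse macrophage line, and there was 1 library for each of 3 groups. The first group received 0.5 mM hydroxyurea (HU) and gold nanocages together, the second received 0.5 mM HU alone, and the third was the untreated control. RNA was taken 12 hours into the treatment, and the amount of nanocages is not given in the sources used here. All cells belong to a single line grown in medium with 10% serum, so no group informs on primary macrophages. With 1 library per group there was no replicate check: no p-value or standard error can be given for a difference between conditions, and the 95% intervals below (exact Clopper-Pearson) cover counting error only.

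Ribosomal proteins bind ribosomal RNA during assembly in the nucleolus and stay on the finished large and small subunits, each in a single copy apart from the stalk proteins P1 and P2. Their mRNAs in vertebrates usually begin with a C followed by a run of pyrimidines, the 5′ terminal oligopyrimidine (TOP) tract, through which mTOR signalling and LARP1 control their translation together. The genes are also known for very many processed pseudogenes, copies made by reverse transcription of their mRNAs, many of which differ from the parent gene by few bases. Hydroxyurea inhibits ribonucleotide reductase, which makes deoxyribonucleotides, and so slows DNA replication.

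The labels of the gene table fitted the rule. The term for the cytosolic large subunit was attached to 40 of the 46 large subunit genes and to 0 small subunit genes, and the term for the cytosolic small subunit to 29 of the 31 small subunit genes and to 0 large subunit genes. The libraries held 18644333 counted reads with HU and nanocages, 20057329 with HU and 14990564 in the control. All 8 macrophage markers, among them Csf1r, Adgre1 and Cd68, had a mean of at least 1 FPKM, and 0 of 5 fibroblast, 0 of 6 lymphocyte and 0 of 6 granulocyte markers did. The macrophage markers summed to 4971 CPM with HU and nanocages, 5186 with HU and 5437 in the control, and the part of this difference in the results below was not tested.

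A pyrimidine start of the kind described above was looked for in the RefSeq promoter table (GRCm38.p6, the same assembly as mm10), which held 57 of the 77 members. A C at the annotated start followed by at least 4 further C or T bases was present in 13 of the 57 members, or 22.8%, and in 2.97% of 26968 other genes. The 8 of these with the highest mean FPKM are shown because several of them, Rplp2, Rps10, Rpl15 and Rpl35 among them, recur in the comparisons. Each window holds 15 bases before the start and 15 from it on, written 5′ to 3′ on the gene's strand, and the capitals mark the C and T run from the annotated start base.
Rpl35, chr2:39005117-39005146, minus strand: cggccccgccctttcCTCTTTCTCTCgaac
Rpl14, chr9:120571502-120571531, plus strand: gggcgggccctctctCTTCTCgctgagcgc
Rplp2, chr7:141447636-141447665, plus strand: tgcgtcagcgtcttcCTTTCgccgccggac
Rps21, chr2:180257364-180257393, plus strand: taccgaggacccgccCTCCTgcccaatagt
Rps15a, chr7:118116133-118116162, minus strand: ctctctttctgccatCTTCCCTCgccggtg
Rpl38, chr11:114668565-114668594, plus strand: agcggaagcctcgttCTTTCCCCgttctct
Rps10, chr17:27635230-27635259, minus strand: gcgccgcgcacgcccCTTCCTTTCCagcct
Rpl15, chr14:18270972-18271001, minus strand: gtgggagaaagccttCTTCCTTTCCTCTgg

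The same windows of 300 bases, 250 before the start and 50 after, were searched for short motifs on both strands. The letters CTTCCG were present in 40 of 57 members, or 70.2%, and in 18.7% of other genes. The letters CTCTTTC were present in 18 members, or 31.6%, and in 9.24% of other genes, and AAGATGG in 9 members, or 15.8%, and in 7.26% of other genes. The runs of pyrimidines and CTCTTTC can overlap, as they do in Rpl35. These are matches of letters in a fixed window and not sites. An annotated start that lies off the true start by a base can lose the match of a pyrimidine start.

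Levels of the members spanned 3 orders of magnitude in every library. Per length, Rpl4, whose long loop lines the peptide exit tunnel, was the most abundant member at 2514 FPKM with HU and nanocages, 2546 with HU and 2566 in the control. Rps26, which touches the mRNA at the exit side of the small subunit, followed at 2411, 2320 and 2266 FPKM, in the same order of libraries. Rplp1, a stalk protein that helps recruit translation factors, had 2048, 2238 and 2191 FPKM. Rpl8, which lies by the peptidyl transferase centre, had 1623, 1719 and 1700 FPKM. Rpsa, a small subunit protein also known as the laminin receptor precursor, had 1352, 1359 and 1348 FPKM. The order of these 5 genes was the same in each library, with the first 3 close to one another. Without replicates, no spread says which neighbours in the order differ.

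At the low end stood Rpl21 with 1.83, 1.33 and 1.35 FPKM, and Rpl29 with 1.82, 1.75 and 2.01 FPKM, again with HU and nanocages first, then HU, then control. Rpl35a followed with 2.65, 2.73 and 2.27 FPKM, Rpl26 with 4.49, 3.42 and 3.65 FPKM, and Rps18 with 5.68, 5.60 and 5.68 FPKM. The order of Rpl21 and Rpl29 differed between libraries, and their reads were few: 116, 91 and 69 for Rpl21 and 27, 28 and 24 for Rpl29. The reads on a near-identical copy of Rpl26 are given further on. In the same order, the pseudogene Rpl21-ps15 had 831, 941 and 658 reads, and Gm13841, a copy of Rpl29, had 1292, 1441 and 1160. Gm10243, a copy of Rpl35a, had 278, 314 and 258 reads, and Rps18-ps3 had 500, 607 and 615.

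The 2 subunits differed in level in the same way in all libraries. The median large subunit gene had 87.1 FPKM with HU and nanocages, 93.1 with HU and 99.8 in the control, and the median small subunit gene had 186, 191 and 188 FPKM. For comparison, the median of all genes above 1 FPKM was 10.6, 10.7 and 10.6 FPKM. There were 10 members at or above 1000 FPKM in each library. Members under 10 FPKM numbered 12 with HU and nanocages, 10 with HU and 11 in the control. Summed over members, the large subunit took 1.27 reads for each read of the small subunit with HU and nanocages (95% interval 1.267 to 1.280), 1.29 with HU (1.288 to 1.300) and 1.29 in the control (1.282 to 1.296). FPKM depends on the exonic length given in the deposited table, which was at least 2 times the main mRNA's length in 39 of 77 members, with a median of 2.01 times and a maximum of 9.78 times in Rps15a.

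**Figure D1:**
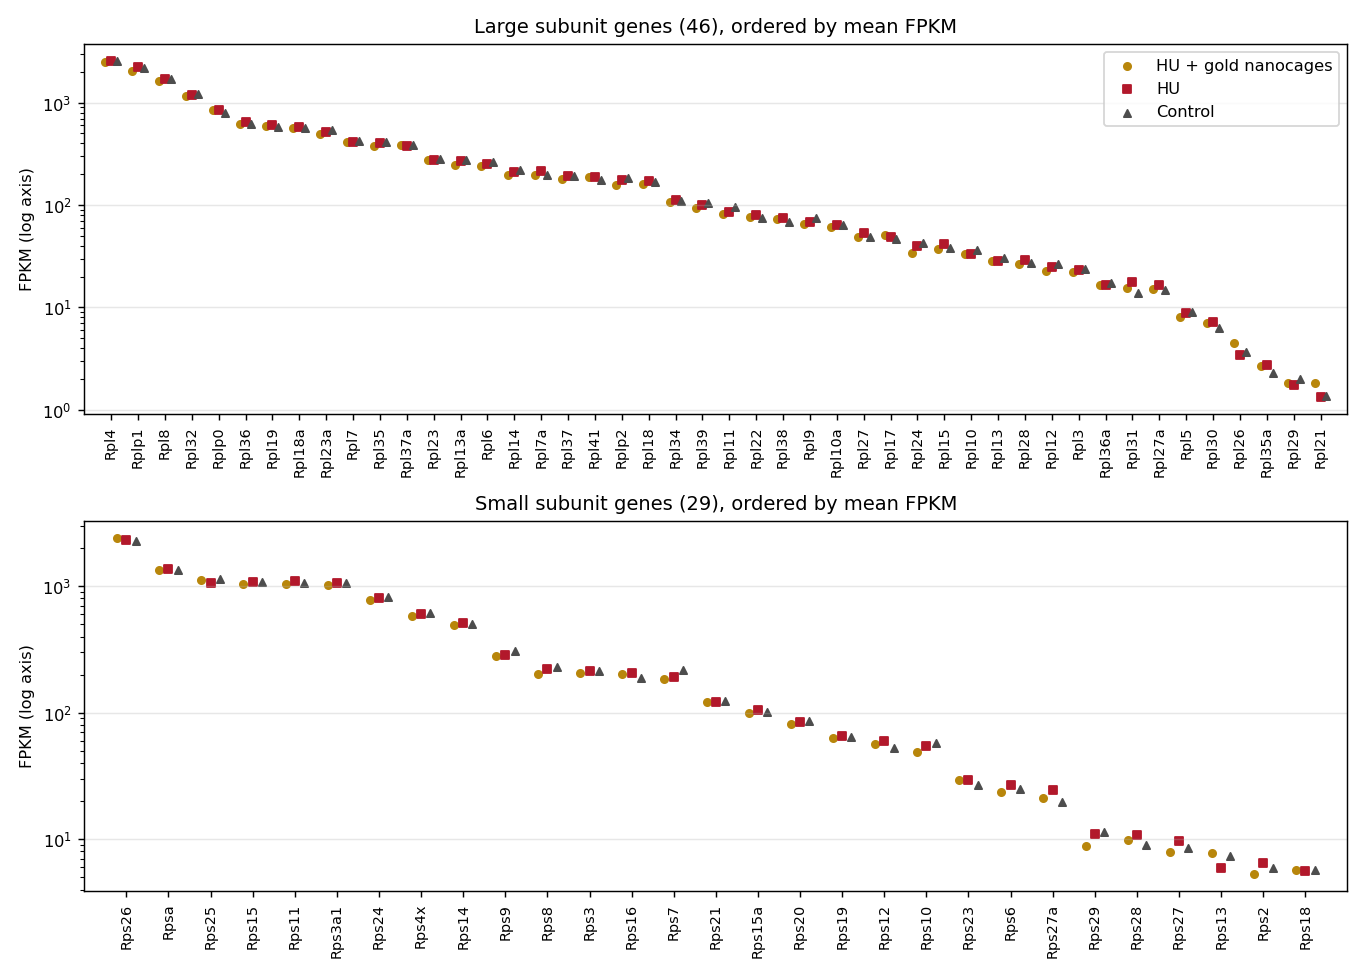
FPKM (log axis) of 46 large subunit genes (top) and 29 of the 31 small subunit genes (bottom) in the 3 libraries, ordered by mean FPKM. Each point is 1 library; the points of a gene lie close together, while genes run between 1.33 and 2566 FPKM.

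The coding sequences of the members were compared with all other annotated transcripts, because reads that fit several genes equally can be split or dropped by counting. A window is a stretch of 75 bases of the coding sequence, and a window was called shared when it occurred exactly in a transcript of another gene. Of the 77 members, 75 shared at least 1 window, 23 shared every window, and 2 shared none, Rps3 among them. The median member shared windows with 5 other genes, and Rpl7a shared them with 64. How reads that map to several places were counted, and on which strand, is not given in the sources used here.

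Genes with more shared windows had lower levels, as a description across genes. The 15 members with under 50% of windows shared had a median of 493 FPKM with HU and nanocages, 513 with HU and 501 in the control. The 39 members with 50% to under 100% shared had medians of 186, 191 and 197 FPKM. The 23 members with every window shared had medians of 28.1, 28.8 and 27.0 FPKM. Over the 77 genes, the share of windows and log10 FPKM gave Pearson's r of -0.49 in each library and Spearman's rho of -0.54 with HU and nanocages, -0.55 with HU and -0.55 in the control. With the reads of annotated copies added to each gene, log10 reads gave r of -0.46, -0.45 and -0.45 in the same order. Spearman's rho was then -0.55, -0.55 and -0.54, so the association remained. These reads were not divided by length, and the cause of the association was not tested. Genes of 1 library share its depth and are not independent, so no p is given. There were exceptions: Rpl23a, at the tunnel exit, had every window shared and yet 496, 515 and 543 FPKM in the 3 libraries.

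**Figure D2:**
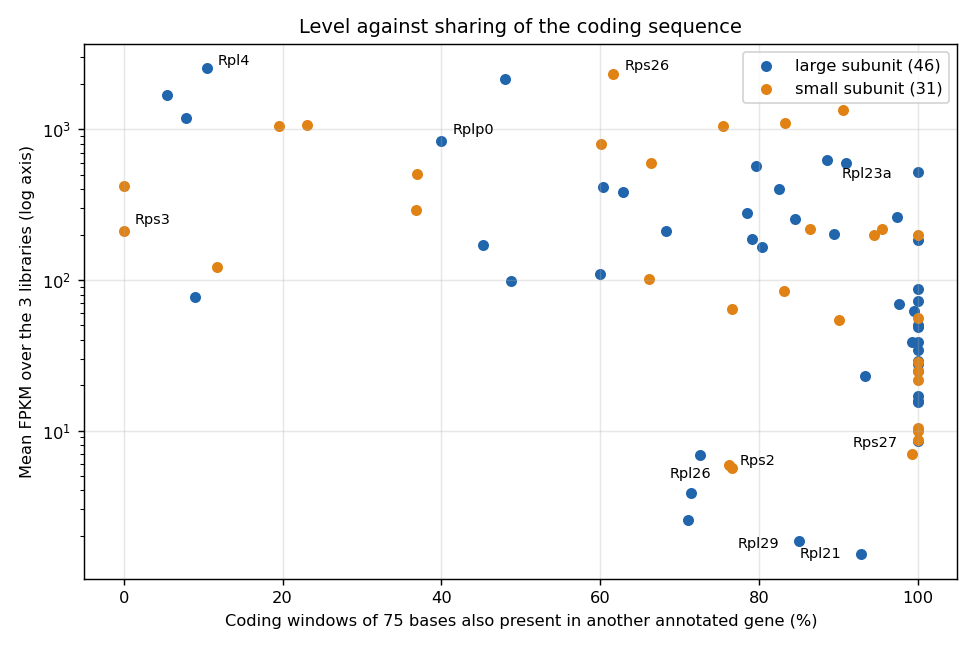
Mean FPKM over the 3 libraries (log axis) against the percentage of 75-base coding windows that also occur in another annotated gene, 1 point per ribosomal protein gene, large and small subunit in different colours. The lowest members lie at 70% or more of windows shared.

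Reads on the annotated copies of members were then set beside the reads on the members. Of the other genes in the table, 558 held at least 1 shared window, and 525 of these are annotated as pseudogenes. Those that are pseudogenes or carry an Rpl or Rps symbol were counted as copies. The copies took 0.900% of all reads with HU and nanocages, 0.955% with HU and 0.984% in the control. In each library 27 members had fewer reads than their copies together, and the copies had over 10 times the reads of the gene for 6 members with HU and nanocages, 7 with HU and 8 in the control.

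Rpl26, a protein of the tunnel exit that in human cells also binds MDM2, had 121 reads with HU and nanocages, 99 with HU and 79 in the control. Its processed pseudogene Gm15772 had 12210, 13686 and 9895 reads. The gene lies at chr11:68901583-68906989 on the plus strand and the pseudogene at chr5:3236431-3236868 on the plus strand (mm10). Over the 438 coding bases they differed at 2 positions, C177T and T288C, the gene's base first and positions counted from the A of the start codon, an identity of 99.5%. Bases 169 to 288 hold both differences and are shown from the GENCODE M21 transcripts with the differing bases in capitals, since within the coding sequence only these bases tell reads of the gene from reads of the copy. Reads that reach the gene's untranslated ends were not compared.
Rpl26: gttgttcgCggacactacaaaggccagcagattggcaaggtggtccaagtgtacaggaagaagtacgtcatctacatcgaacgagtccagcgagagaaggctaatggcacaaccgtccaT
Gm15772: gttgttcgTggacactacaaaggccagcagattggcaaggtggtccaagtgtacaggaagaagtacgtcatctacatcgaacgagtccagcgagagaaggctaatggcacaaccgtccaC

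Rps2, at the mRNA entry of the small subunit, had 181, 239 and 162 reads, against 11720, 13211 and 10240 on Rps2-ps10 and 8459, 9721 and 7543 on Rps2-ps13, each with HU and nanocages, HU and control in that order. Rpl3, which reaches to the peptidyl transferase centre, had 1297, 1456 and 1109 reads, against 10862, 12840 and 10959 on Rpl3-ps1. Rps27a, which encodes ubiquitin joined to a small subunit protein, had 779, 965 and 580 reads, against 7260, 6985 and 6454 on Rps27a-ps2. Rplp0, the base of the stalk, had 26455, 28496 and 19753 reads, above the 17402, 21157 and 15532 on Gm8730. The annotated pseudogenes outnumbered Rps2, Rpl3 and Rps27a in reads in all 3 libraries, and Gm8730 did not outnumber Rplp0.

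Rps27, a zinc-binding protein of the small subunit, had 154 reads with HU and nanocages, 201 with HU and 132 in the control. The gene Rps27rt, annotated as protein coding, had 1191, 2167 and 1549 reads. Rps27 lies at chr3:90212522-90213651 and Rps27rt at chr9:114982366-114982739, both on the minus strand, and their coding sequences of 255 bases, 84 codons and a stop, were identical. The sequence they share is shown once, from the GENCODE M21 transcripts, because no read within it can be assigned to either gene.
Rps27 and Rps27rt: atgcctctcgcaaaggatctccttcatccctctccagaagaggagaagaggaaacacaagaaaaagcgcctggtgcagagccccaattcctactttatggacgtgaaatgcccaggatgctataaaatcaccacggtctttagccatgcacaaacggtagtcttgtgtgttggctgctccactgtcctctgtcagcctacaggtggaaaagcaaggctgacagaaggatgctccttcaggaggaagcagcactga

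**Figure D3:**
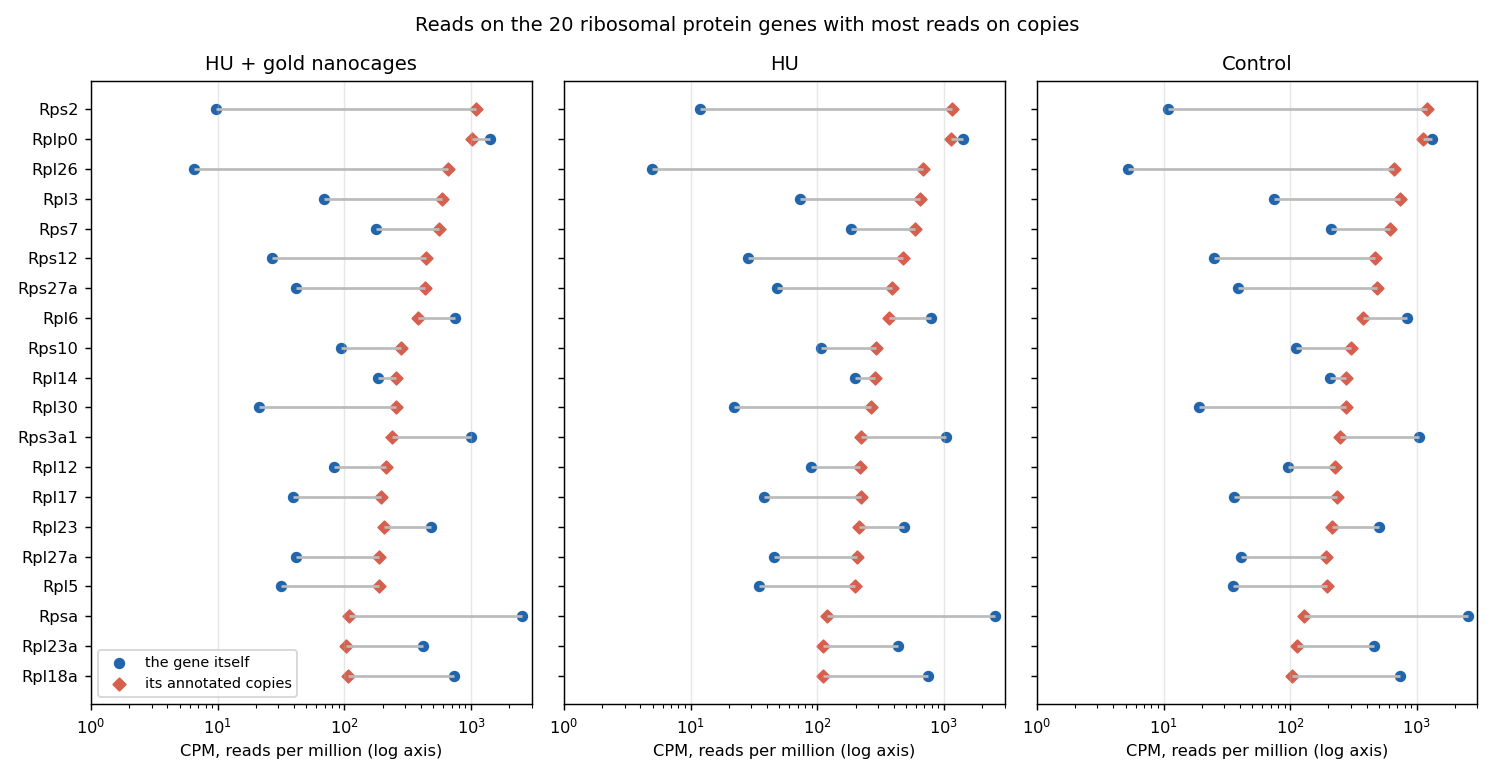
CPM (reads scaled to the library total, log axis) on each of the 20 ribosomal protein genes with the most reads on copies, and on their annotated copies together, in each library. Rps2 and Rpl26 have far fewer reads than their copies in all 3 libraries, while Rpsa and Rplp0 have more.

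Scaled to the library totals, the summed share of reads on ribosomal protein genes with HU differed from the control by less than counting error. The members took 3.25% of reads with HU (95% interval 3.246 to 3.261) and 3.25% in the control (3.239 to 3.257), a ratio of 1.00 (0.998 to 1.01). The large subunit took 1.84% with HU and 1.83% in the control, and the small subunit 1.42% and 1.42%. This rests on the scaling and on the copies: the ratio was 1.0048 (1.0011 to 1.0085) with edgeR's TMM factors, 0.9945 (0.9912 to 0.9977) with the annotated copies added and 0.9942 (0.9908 to 0.9977) with pseudogenes of -ps symbols added, so its side of 1 changed with these choices, and each of these differences was under 1%. The median log2 ratio of FPKM + 1 was -0.01 over the large subunit and 0.01 over the small subunit, beside -0.01 over all genes, and the small subunit median log2 CPM ratio was -0.02 with copies added. The pseudocount of 1 FPKM makes this ratio smaller for low genes. In bulk RNA, fewer cells of a kind and less RNA per cell cannot be told apart.

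Few members stood far from the control. A member was counted as higher or lower where its CPM differed by at least 1.1-fold, and 10 members were higher with HU and 5 were lower. The same rule took 23.6% of all genes above 1 FPKM as higher and 24.4% as lower, and 10.9% and 9.70% of genes with a mean of at least 100 FPKM. Of the 10 higher members, 9 had under 1000 reads in a library. By counting error alone, that is with an interval that leaves out a ratio of 1, 15 members were higher and 8 lower, beside 18.7% and 20.1% of all genes. Among the 40 members with a mean of at least 100 FPKM, 10 were higher and 5 lower by counting error, beside 30.2% and 25.0% of all 567 genes at that level, which include the members. Lower at all were 21 of these 40, beside 47.3%.

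Among the 54 members with at least 1000 reads in each library, 1 was at least 1.1-fold higher with HU and 3 were lower. These were 1.85% and 5.56%, beside 10.9% and 9.70% of all genes with a mean of at least 100 FPKM. That is a limit on level, and no share was counted for all genes with at least 1000 reads. Rps16, whose tail contacts the tRNA in the P site, had 206.59 FPKM with HU and 187.73 in the control, a CPM ratio of 1.1 (95% interval 1.04 to 1.16). Its pseudogene Rps16-ps2 had 1585 and 1179 reads beside 3344 and 2271 on the gene, a ratio of 1.00 (0.931 to 1.08). Rps7, of the small subunit, had 190.50 and 217.76 FPKM, a ratio of 0.875 (0.834 to 0.918). Its pseudogene Gm6472 had 10622 and 8197 reads beside 3672 and 3137 on the gene, a ratio of 0.968 (0.941 to 0.997). Rpl11, which with Rpl5 and the 5S rRNA forms the particle that binds MDM2, had 85.54 and 95.40 FPKM, a ratio of 0.897 (0.859 to 0.936). Rpl9 had 67.79 and 74.81 FPKM, a ratio of 0.906 (0.866 to 0.948). Its copies Rpl9-ps6 and Rpl9-ps4, with fewer reads than the gene, had 0.938 (0.864 to 1.02) and 0.766 (0.683 to 0.860). Next to these, Rpl15, Rpl27, Rpl7a, Rpl41 and Rplp0 had ratios between 1.08 and 1.09, and Rpl10, Rpl12 and Rps9 between 0.926 and 0.937. Gm8730, the copy of Rplp0 with most reads, had 1.02 (0.997 to 1.04), and Gm10275, that of Rpl12, had 0.963 (0.920 to 1.01).

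The largest HU to control ratios of members lay at low counts. Rpl31, at the tunnel exit, had 590 reads with HU and 343 in the control, a ratio of 1.29 (1.12 to 1.47). Its pseudogene Rpl31-ps8 had more reads, 1054 and 770, and a ratio of 1.02 (0.931 to 1.12). Rps27a had 965 and 580 reads, a ratio of 1.24 (1.12 to 1.38). Rps27a-ps2 had 6985 reads with HU and 6454 in the control, a ratio of 0.809 (0.782 to 0.837) once scaled to the library totals, and Rps27a with all its annotated copies gave 0.836 (0.811 to 0.862). The direction of Rps27a thus turned with the copies added, and how reads were shared out between gene and copy was not tested. Between HU with nanocages and HU it turned as well, with 0.868 (0.789 to 0.955) for the gene and 1.09 (1.06 to 1.12) with its copies. With copies added to every member, 1 member was at least 1.1-fold higher and 6 were lower with HU.

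With gold nanocages added to HU, the share of reads on ribosomal protein genes was lower than with HU alone. It was 3.15% with HU and nanocages (95% interval 3.141 to 3.157) and 3.25% with HU (3.246 to 3.261), a ratio of 0.968 (0.964 to 0.971). The large subunit had 1.76% with HU and nanocages and 1.84% with HU, a ratio of 0.961 (0.957 to 0.966). The small subunit had 1.38% and 1.42%, a ratio of 0.976 (0.971 to 0.982). The annotated copies had 0.900% and 0.955%, a ratio of 0.942 (0.936 to 0.949). The median log2 ratio was -0.06 over the large and -0.06 over the small subunit, beside 0.00 over all genes and -0.01 over genes with at least 100 FPKM.

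Most members were lower, and CPM ratios of single members ran from 0.814 to 1.37. With HU and nanocages, 67 of the 77 members were lower than with HU, 41 of 46 in the large and 26 of 31 in the small subunit, while 48.2% of all genes and 60.7% of genes with at least 100 FPKM were lower. At least 1.1-fold, 3 members were higher and 13 lower, beside 13.2% and 11.0% of all genes and 2.47% and 2.65% of genes with at least 100 FPKM. By counting error, 3 members were higher and 36 lower, beside 8.35% and 7.78% of all genes. Among the 40 members with at least 100 FPKM, 36 were lower at all, and by counting error 2 were higher and 24 lower, beside 17.1% and 27.3% of all genes at that level. Of the 15 members with under 50% of windows shared, 15 were lower, of the 39 with 50% to under 100% shared, 30 were, and of the 23 with every window shared, 22 were. The middle class thus held 9 of the 10 members that were not lower. Rps3, which lines the mRNA entry and shares no window, had 207.27 FPKM with HU and nanocages and 211.63 with HU, a ratio of 0.979 (0.959 to 1.000).

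**Figure D4:**
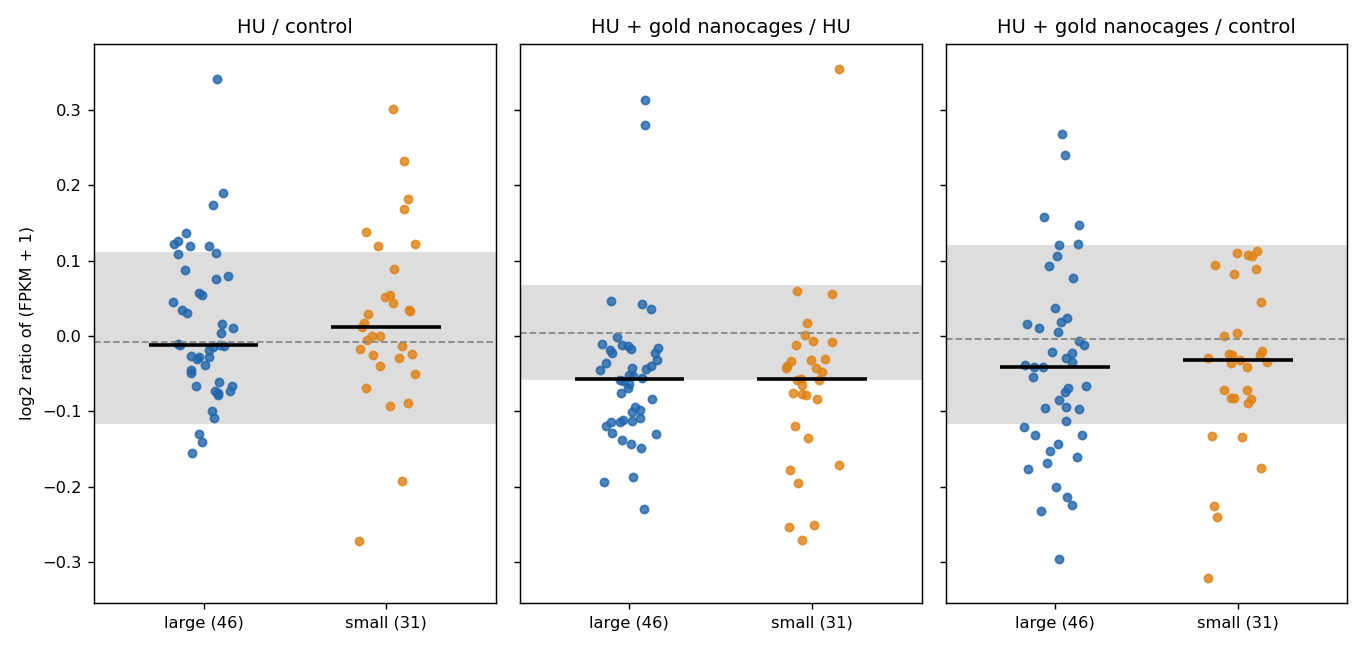
Log2 ratio of FPKM + 1 for each ribosomal protein gene, by subunit, in the 3 contrasts; black bars are medians of the members, the grey band holds the middle quartiles of all genes above 1 FPKM and the dashed line their median. In the nanocage against HU panel, the medians of both subunits are -0.06 and most points lie below the dashed line.

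The 5 lower members with at least 1000 reads in each library were led by stalk protein Rplp2, which had 155.32 FPKM with HU and nanocages and 176.91 with HU, a ratio of 0.878 (95% interval 0.848 to 0.909). Rps10, which is ubiquitinated when ribosomes collide, had 48.71 and 54.95 FPKM, a ratio of 0.886 (0.832 to 0.945). Its pseudogene Rps10-ps2 had 5089 and 5667 reads beside 1759 and 2135 on the gene, a ratio of 0.966 (0.930 to 1.004). Rpl13a, known in human monocytic cells for leaving the ribosome under interferon-gamma, had 243.98 and 270.50 FPKM, a ratio of 0.902 (0.882 to 0.923). Rpl27 had 48.22 and 53.36 FPKM, a ratio of 0.904 (0.841 to 0.971), and Rpl15 had 37.44 and 41.29 FPKM, a ratio of 0.907 (0.849 to 0.968). Of these 5, Rplp2, Rps10 and Rpl15 are among the genes whose pyrimidine starts are shown above. The 13 members with such a start had a median log2 ratio of -0.10, with 12 lower, and the 44 other members in the promoter table had -0.04, with 39 lower; this split was made after the values were seen.

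A few members did not follow. Rps25, on the head of the small subunit and needed for initiation at some viral RNAs, had 1112 FPKM with HU and nanocages and 1067 with HU, a ratio of 1.04 (95% interval 1.02 to 1.07). Rps26 had 2411 and 2320 FPKM, a ratio of 1.04 (1.02 to 1.06). Rpl37a had 386 and 375 FPKM, a ratio of 1.03 (0.988 to 1.08). Its processed pseudogene Gm4149 went the other way, with 371 and 741 reads beside 4207 and 4392 on Rpl37a. The ratio of Gm4149 was 0.539 (0.474 to 0.611), and how reads were shared out between gene and copy was not tested. The 3 members at least 1.1-fold higher all had few reads: Rpl21 with 116 and 91 reads, Rps13 with 85 and 69, and Rpl26 with 121 and 99; Rps13 was named after its values were seen. With copies added, Rpl21 gave 0.991 and Rpl26 0.961. Rps13 stayed higher with its copies, which held 396 and 434 reads.

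**Figure D5:**
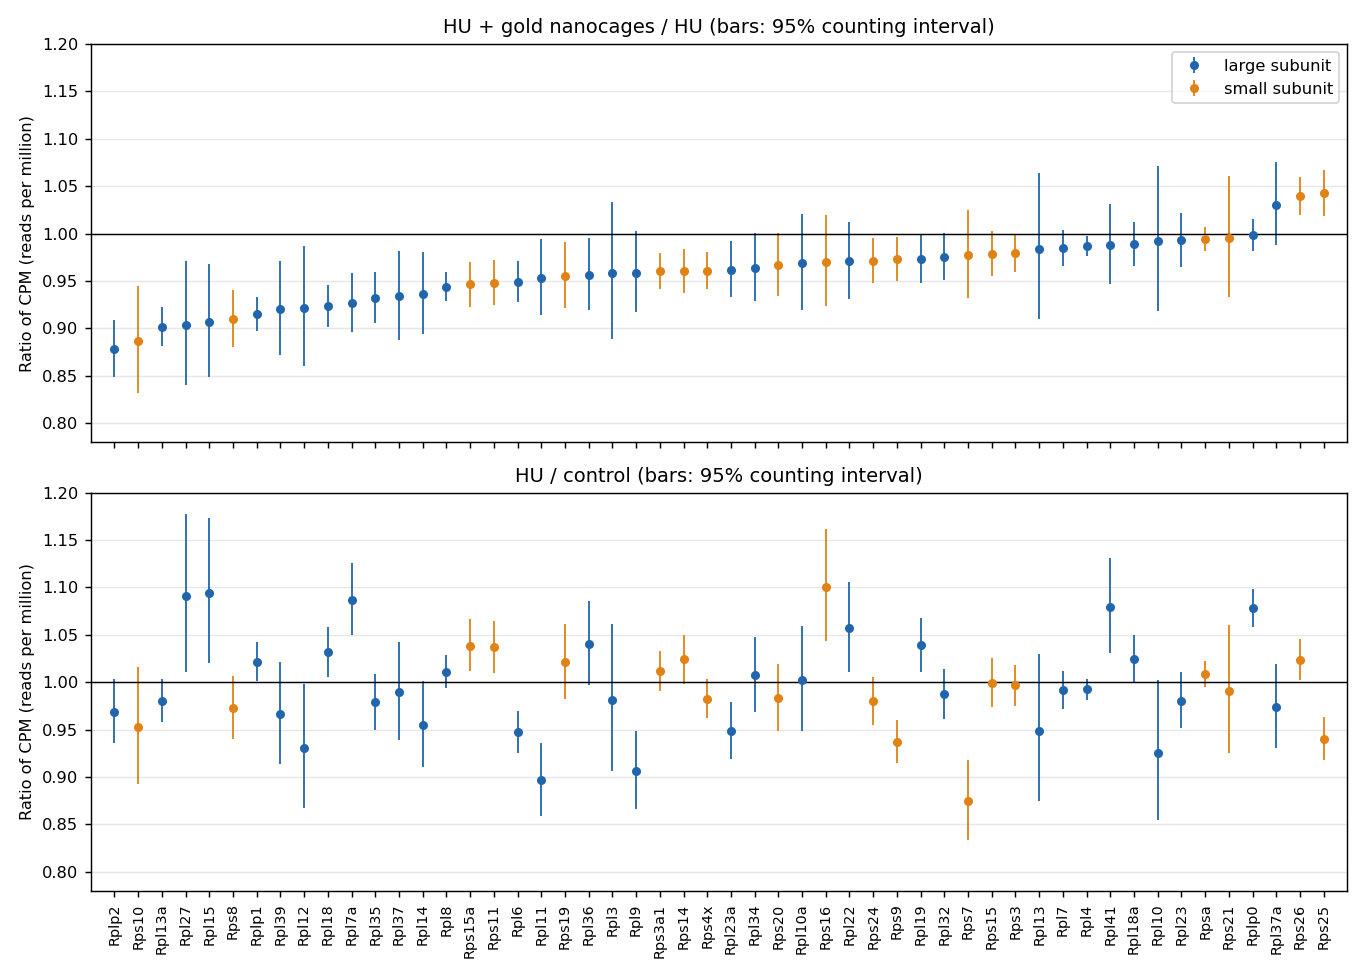
CPM ratio with 95% counting intervals for 52 of the 54 ribosomal protein genes with at least 1000 reads in each library, ordered by the ratio of HU with nanocages to HU (top) and shown in the same order for HU to control (bottom). In the top panel 49 of 52 points lie under 1, while the bottom panel shows points on both sides of 1.

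By place on the ribosome, the stalk and its base had ratios of HU with nanocages to HU of 1.00 for Rplp0 (0.982 to 1.02), 0.915 for Rplp1 (0.897 to 0.933), 0.878 for Rplp2 and 0.921 for Rpl12 (0.860 to 0.987). The copies with most reads differed from their genes, at 0.885 for Gm8730 of Rplp0 (0.867 to 0.903) and 0.975 for Gm10275 of Rpl12 (0.933 to 1.02). The partners of the 5S rRNA had 0.904 for Rpl5 (0.808 to 1.01) and 0.953 for Rpl11 (0.914 to 0.994). Gm15500, a pseudogene of Rpl5 with more reads than the gene, had 0.958 (0.915 to 1.003). Of 8 proteins around the tunnel exit, 6 were lower, or 75%, beside 87.0% of all members and 48.2% of all genes. Among the 6 were Rpl35 at 0.932 (0.906 to 0.960), Rpl39 at 0.920 (0.872 to 0.971) and Rpl31 at 0.868 (0.768 to 0.981). The 4 proteins of the mRNA entry and decoding site were all lower, as most members were. Of these, Rps2 at 0.815 (0.668 to 0.992) was the lowest and had the fewest reads. Its pseudogenes Rps2-ps10 and Rps2-ps13, with far more reads, had 0.954 (0.931 to 0.978) and 0.936 (0.909 to 0.964). Rps23, which lines the decoding centre, had 0.992 (0.865 to 1.136). By the mRNA exit, Rps14 and Rps28 were lower, at 0.961 (0.938 to 0.984) and 0.913 (0.774 to 1.078), and Rps26 was higher. Gm10443, a pseudogene of Rps28, had 1124 and 1156 reads beside 270 and 318 on the gene. Its ratio lay on the other side of 1, at 1.046 (0.963 to 1.1365), and both intervals include 1. How reads were shared out between Rps28 and Gm10443 was not tested.

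The members lay on many chromosomes, with the largest number, 14 of 77, on chromosome 7, and 4 lay on the X chromosome. Rps4x, an X-linked protein of the small subunit, had 580 FPKM with HU and nanocages, 603 with HU and 614 in the control, a ratio of HU with nanocages to HU of 0.961 (95% interval 0.942 to 0.981). Rpl39, of the tunnel, had 92.57, 100.62 and 104.16 FPKM. Rpl10, which joins the large subunit late in assembly, had 33.02, 33.29 and 35.97 FPKM, and Rpl36a had 16.56, 16.72 and 17.49 FPKM. All 4 X-linked members were lowest with HU and nanocages and highest in the control. Of all 77 members, 64.9% were lowest with HU and nanocages and 44.2% highest in the control, beside 30.0% and 42.4% of all genes. For HU against control, all 4 X-linked members lay within counting error, and for HU with nanocages against HU, 2 of the 4 did.

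Rps27rt, whose coding sequence is shown above, had 172.65 FPKM with HU and nanocages, 292.00 with HU and 279.27 in the control, a ratio of 0.591 between the nanocage and HU libraries (95% interval 0.550 to 0.635). Rps27 itself had 7.92, 9.61 and 8.44 FPKM, a ratio of 0.824 (0.664 to 1.02). Together with their other copies the ratio was 0.611 (0.571 to 0.654), the lowest of the 77 members with copies added. Rps27l, a paralogue known in other cells as a p53 target, had 230 FPKM with HU and nanocages, 249 with HU and 200 in the control. Its ratio of HU to control was 1.24 (1.18 to 1.31) and of HU with nanocages to HU 0.924 (0.883 to 0.967). Rpl22l1, Rpl36al and Rpl7l1 had ratios of HU with nanocages to HU of 0.960, 1.01 and 1.01. Rpl39l, Rpl10l and Rps4l had 0 reads in all 3 libraries, where a count of 0 allows up to 0.161 CPM with HU and nanocages, 0.150 with HU and 0.200 in the control (3 reads), and Rpl3l stayed under 1 FPKM.

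Against the control, HU with nanocages gave a share of reads on the members lower by a ratio of 0.970 (95% interval 0.966 to 0.973), with 0.964 for the large and 0.976 for the small subunit. This comparison shares a library with each of the others and is no independent result. At least 1.1-fold, 5 members were higher and 16 lower, beside 24.9% and 24.3% of all genes and 11.3% and 13.4% of genes with at least 100 FPKM. By counting error 4 members were higher and 29 lower, beside 19.6% and 20.1% of all genes. Lower at all were 52 of 77 members, beside 50.8% of all genes. Among the 40 members with at least 100 FPKM, 30 were lower at all, beside 53.3% of all genes at that level, and by counting error 4 were higher and 21 lower, beside 26.8% and 32.5%. Of the 77 members, 50 had their lowest value with HU and nanocages, 7 with HU and 20 in the control, while 30.0% of all genes had their lowest value with HU and nanocages. The lowest ratios among members with at least 1000 reads were 0.844 for Rps10 (0.789 to 0.903), 0.851 for Rplp2 (0.820 to 0.882), 0.855 for Rpl11 (0.818 to 0.893) and 0.855 for Rps7 (0.814 to 0.898). For Rps10 and Rps7, a pseudogene with more reads than the gene lay nearer to 1. These were Rps10-ps2 at 0.934 (0.896 to 0.972) and Gm6472, a copy of Rps7, at 0.918 (0.891 to 0.946). Not all such pseudogenes did: Rpl3-ps1 had 0.797 (0.776 to 0.818), further from 1 than Rpl3. Among members with at least 1000 reads, Rplp0 was the highest at 1.08 (1.06 to 1.097), while its pseudogene Gm8730 had 0.901 (0.881 to 0.921).

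Genes that serve the ribosome without being part of it were read for comparison. Of 52 genes for ribosome assembly and RNA polymerase I, 44 had a higher CPM with HU than in the control, beside 5217 of all 10849 genes, with a median log2 ratio of 0.07. At least 1.1-fold, 14 were higher, or 26.9%, and 1 was lower, or 1.92%, beside 23.6% and 24.4% of all genes. Rrn3, an initiation factor of RNA polymerase I, had 43.53 FPKM with HU and nanocages, 41.72 with HU and 31.53 in the control, a ratio of HU to control of 1.32 (95% interval 1.246 to 1.405). Taf1b, of the selectivity factor of the same polymerase, had 11.58, 11.85 and 14.84 FPKM, a ratio of 0.799 (0.701 to 0.911). Between HU with nanocages and HU the 52 genes had a median log2 ratio of 0.01, with 24 lower, or 46.2%, beside 48.2% of all genes.

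The 16 translation factors and other genes whose mRNAs carry TOP tracts had a median log2 ratio of 0.00 for HU against control and -0.02 for HU with nanocages against HU, with 12 of 16 lower in the second, beside 48.2% of all genes and 60.7% of genes with at least 100 FPKM. None of the 16 was 1.1-fold apart in either. Eef1g, of elongation factor 1, had 186 FPKM with HU and nanocages, 195 with HU and 213 in the control. The 80 mitochondrial ribosome genes above 1 FPKM had medians of 0.02 for HU against control and 0.00 for HU with nanocages against HU. The 11 regulators of TOP mRNAs had -0.01 and 0.03. Mtor had 11.18 FPKM with HU and nanocages, 12.28 with HU and 13.03 in the control, and Larp4 37.84, 35.92 and 33.92.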

How the data were processed

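Gene-level values of 3 RNA-seq libraries of RAW 264.7 cells were used, 1 library per group, each from 1 µg of total RNA of RIN above 7 per the labels' protocols. The authors deposited whole-number read counts per gene, not normalized. The FPKM columns were also made by the authors: per the file headers and the values, each equals the deposited count divided by exonic gene size and library total within 0.005, for 100% of genes. The exonic size is deposited per the file headers as another kind of value, a length in bases. Build mm10 and the programs SAMtools 0.1.18, HTSeq 0.6.1, DESeq, cutadapt, bcl2fastq 2.17.1.14 and HISAT2 2.0.1 come from the submitters' processing notes. Library totals of 14990564 to 20057329 reads set the counting intervals.

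Computed here were log2 ratios of FPKM with a pseudocount of 1 and CPM ratios with exact Clopper-Pearson 95% intervals (Python 3.11.15, scipy 1.17.1), checked on simulated data. Genes named with differences were the 6 highest and 6 lowest members per contrast with at least 1000 reads in each library, the 5 most and least abundant, those of places on the ribosome, paralogues, and up to 4 of each further list. Members and lists were chosen with earlier results of these data known. A few of the genes are not reported by name here. Other scalings came from edgeR 4.0.16 and DESeq2 1.42.0 (R 4.3.3).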

Additional observations from a re-analysis of the deposited data

How the results depend on the processing

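No paired analysis was possible because each group has 1 library. The causes of the shifts below were not tested. Alternatives took 40 members of at least 100 FPKM, 15 of under 50% shared windows, 54 of at least 1000 reads, and all 77 with copies added. In this order, the members at least 1.1-fold higher with HU than in the control were 1, 0, 1 and 1 instead of 10. For the first 3 these were 2.50%, 0% and 1.85% of the members taken, instead of 13.0%. The lower ones were 1, 0, 3 and 6 instead of 5, so that with copies the lower outnumbered the higher. For the first 3 these were 2.50%, 0% and 5.56%, instead of 6.49%. For HU with nanocages against HU, all 4 gave 0 higher instead of 3, and the first 3 gave 2, 1 and 5 lower instead of 13. These lower ones were 5.00%, 6.67% and 9.26% of the members taken, instead of 16.9%. Against the control all 4 gave 0 higher instead of 5, and the first 2 gave 6 and 2 lower instead of 16. As shares of the members taken, these lower ones were 15.0% and 13.3%, instead of 20.8%. For HU against control the ratio of the share of reads was 0.998 for all members and 0.995 for the large subunit without the 5 members with most reads. It was 0.994 (all), 0.997 (large) and 0.991 (small) with -ps pseudogenes added, and 0.994 (all) and 0.988 (small) with annotated copies; with TMM factors it was 1.0048 (all). For HU with nanocages against HU it was 0.964 (all) with DESeq2 size factors, 0.960 (all), 0.951 (large) and 0.966 (small) without the 5, and 0.962 (all) and 0.954 (large) with copies. For HU with nanocages against the control it was 0.958, 0.947 and 0.960 without the 5 (all, large, small), 0.959, 0.954 and 0.965 with -ps pseudogenes, and 0.957, 0.954 and 0.961 with copies, and the median log2 ratio with copies was -0.072. The alternatives by windows, reads and copies were chosen after seeing the data. The other 140 values stayed within set limits. Shares of reads stayed within their counting interval, and counts of members within 1.5 times. Medians stayed within the 95% interval of the median over genes, which reflects the spread between genes and not counting error. Members under 1000 reads, 23 of 77, have the widest counting intervals, and without replicates no spread between cultures is known.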
